A study of Homo sapiens and Mus musculus with 18 samples.

Results

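The guidance genes examined here were the ephrin ligands and their EPH receptors, the semaphorins and their plexin receptors, the netrins and UNC5 receptors, and the SLIT ligands and ROBO receptors. Members were chosen by gene symbol alone among protein-coding genes. They were 67 of 44910 genes in the human count table and 67 of 29720 in the mouse table, 134 of 74630 in all. The same 67 symbols were found in both species: 9 EPHA and 5 EPHB receptors, 5 ephrin-A and 3 ephrin-B ligands, 20 semaphorins, 9 plexins, 4 netrins, 5 UNC5 genes (among them UNC5CL, an UNC5-like gene), 3 SLITs and 4 ROBOs.

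Ephrins sit in the membrane of one cell and bind EPH receptor tyrosine kinases on its neighbour, so that signals run into both cells. This contact is known to keep cell populations apart at embryonic boundaries such as those of somites and hindbrain segments. Semaphorins act through plexins, in some classes with neuropilins as co-receptors. Netrins act through DCC, neogenin and UNC5 receptors, and SLITs act through ROBOs. These families are best known for steering axons, and they also guide neural crest cells, blood vessels and mesoderm in the embryo.

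RNA-seq of 18 samples in 9 groups of 2 replicates was used. The first human group was naïve H9 ESCs, which had been chemically reset and grown in PXGL medium, first on mouse embryonic fibroblast feeders and then without them. The others were primed H9 and primed RUES2-GLR ESCs, both in StemFlex, and RA-gastruloids made from RUES2-GLR ESCs, sampled early (24 h) and late (120 h). RA-gastruloids are aggregates of ESCs that were treated with the WNT agonist CHIR99021 and with retinoic acid. Matrigel was added to their medium, with more retinoic acid, after the time of the early samples. The mouse groups all came from E14Tg2a ESCs. They were naïve ESCs in 2iLif medium, which contains CHIR99021, and epiblast-like cells (EpiLCs, the primed state) after activin A and bFGF. The others were gastruloids made from the naïve cells with a pulse of CHIR99021 and no retinoic acid, sampled early (day 3) and late (day 6). Each of the 3 lines is a single line, and both replicates of a group came from 1 collection, so that p-values measure the spread between these samples only. Line, medium, time, retinoic acid and, in the late samples, Matrigel changed together with species.

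Total counts ran from 3681739 to 38771193 per human sample and from 6487157 to 20052505 per mouse sample, and levels are given as counts scaled to library size (CPM). The limit that a count of 0 allows, 3 counts, corresponds to 0.0774 to 0.815 CPM in human and 0.15 to 0.462 CPM in mouse. Counts of the replicates differed most in late RA-gastruloids, by a chi-square of 12.3 per degree of freedom over genes, where sampling noise alone gives about 1. It was 7.16 in naïve H9 and 1.58 to 3.72 in the other 7 groups. The naïve marker list summed to 5478 to 5873 CPM in naïve H9 against 86.7 to 89.2 in primed H9, and to 2802 to 2868 in naïve mouse ESCs against 62.8 to 64.0 in EpiLCs. It stood at 1081 to 1093 CPM in early mouse gastruloids. Streak and nascent mesoderm markers summed to 803 to 847 CPM in early RA-gastruloids and to about 257 in early mouse gastruloids, with Msgn1 at 0. Sums of further lists changed between the early and late stages, some upward and some downward. In late RA-gastruloids somite markers summed to 372 to 420 CPM (25.9 to 27.96 early) and neural progenitor markers to 135 (3.53 to 5.57 early). Only 2 of the 5 neural progenitor markers reached 1 CPM in both late samples, and OLIG2 was at 0. In late mouse gastruloids somite markers summed to 153 to 156 CPM (32.1 to 32.4 early) and cardiac markers to 73.2 to 76.5 (3.08 to 3.11 early). Fibroblast or stromal markers reached 490 to 533 CPM there (2.52 to 2.99 early). Other sums were lower late. Human neural crest markers summed to 38.8 to 40.7 CPM late (217 to 224 early) and mouse ones to 4.44 to 5.21 (19.3 to 20.4 early). Mouse neuron markers summed to 29.1 to 29.5 CPM late (155 to 158 early). Human cardiac markers summed to 13.25 to 16.9 CPM late (25.3 to 25.6 early). Human fibroblast markers summed to 583 to 686 CPM late (992 to 1059 early). Yet more human neural crest (4 against 2) and mouse neuron (5 against 3) markers reached 1 CPM late. The part of these cells in any result was not tested. In bulk RNA a change in the number of cells of a type cannot be told apart from a change in RNA per cell.

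All 67 human members passed the filter on low counts, and 60 of 67 did in mouse. The mouse genes left out were Epha5, Epha6, Plxnb3, Sema3g, Ntn5, Unc5d and Robo3, each at 1.17 CPM or less in every sample. Their human counterparts were not all low: UNC5D reached 120.1 and 104 CPM and SEMA3G 17.4 and 17.8 CPM in primed RUES2-GLR. Between 45 and 61 human members, and between 43 and 56 mouse members, reached 1 CPM in both samples of a group. The levels of all members in each sample are shown in the plot by family, where, among human samples, the 3 SLIT rows are darkest in naïve H9 and, among mouse samples, the 3 ephrin-B rows are brightest in late gastruloids.

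**Figure D1:**
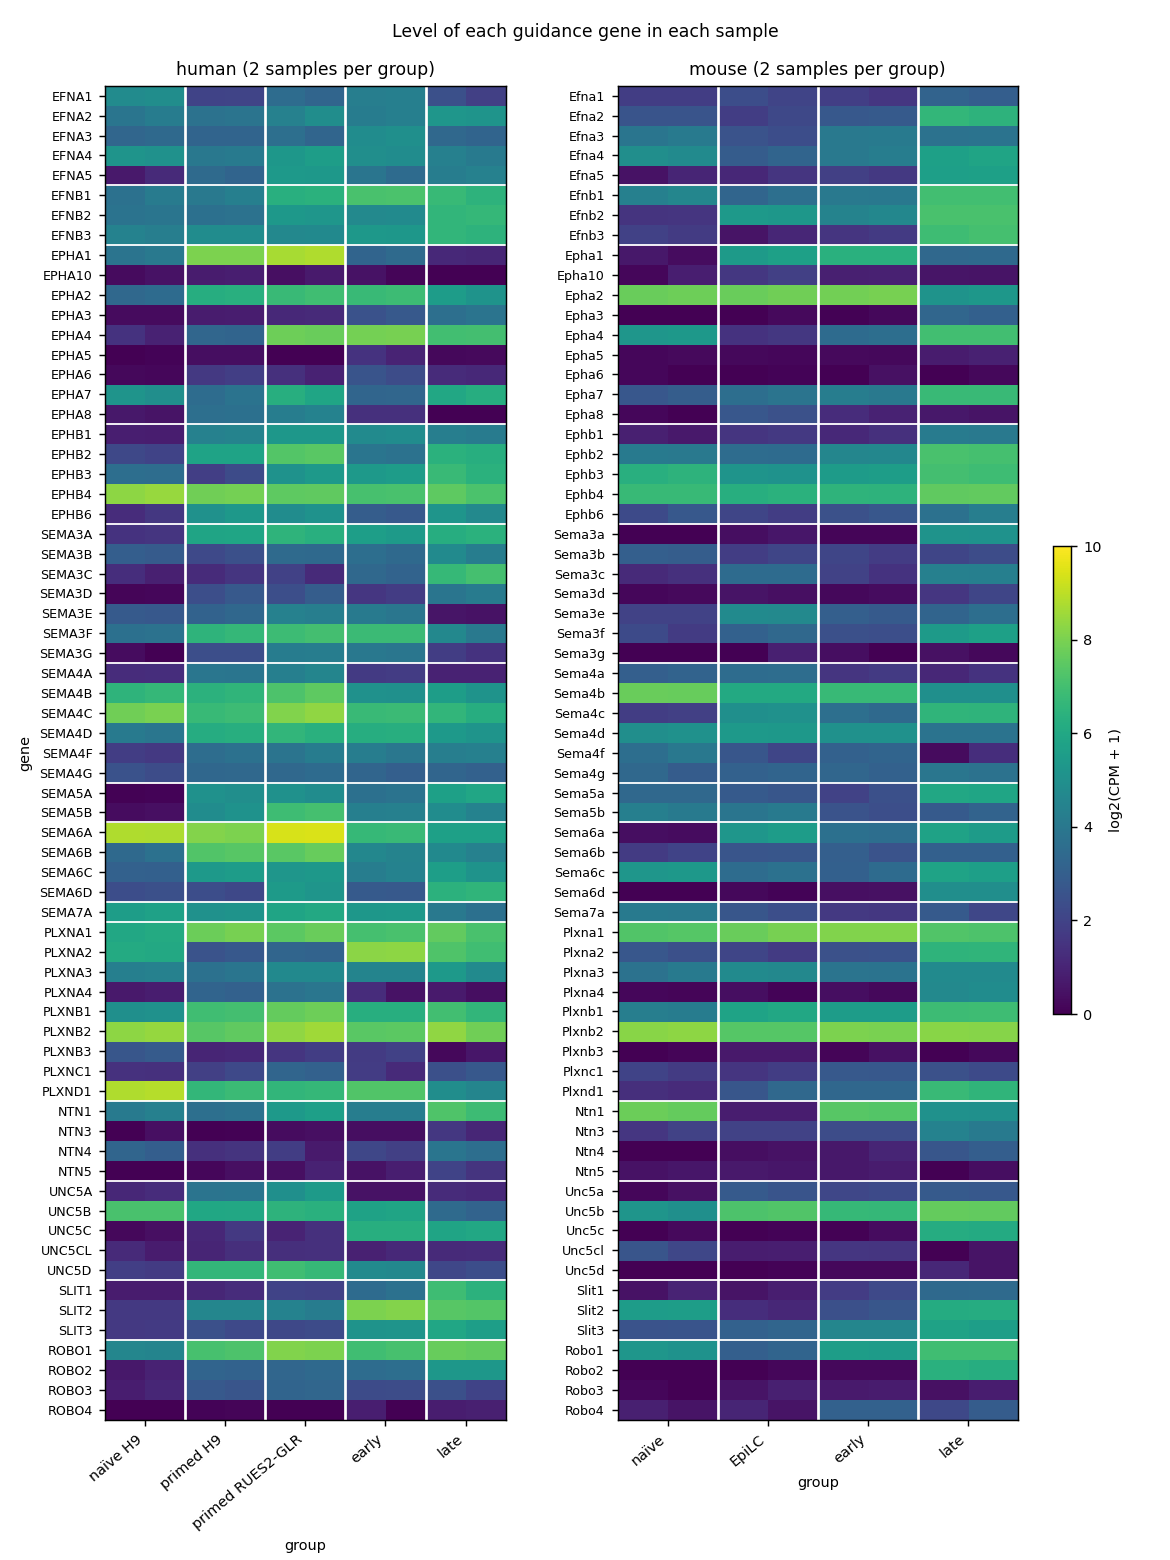
Level of each guidance gene, as log2(CPM + 1), in each of the 10 human and 8 mouse samples, with genes in rows by family and the 2 samples of a group side by side between white lines. CPM is not divided by gene length, so colours are to be compared along a row. EPHA1 (row 9) runs from 13.4 and 15.4 CPM in naïve H9 to 411 and 447 in primed RUES2-GLR and 1.21 and 1.12 in late RA-gastruloids.

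Summed over the 67 genes, human levels were 2570.0 and 2681 CPM in naïve H9, 2845 and 3002 in primed H9 and 4937 and 5246 in primed RUES2-GLR. They were 3084 and 3156 CPM in RA-gastruloids at the early stage and 3517 and 3045 at the late one. In mouse the sums were 1743 and 1767 CPM in naïve ESCs, 1395 and 1497 in EpiLCs, 1795 and 1785 in gastruloids at the early stage and 3349 and 3302 at the late one. The highest human sum was thus in primed RUES2-GLR and the highest mouse sum in late gastruloids. Both H9 groups, which are pluripotent too, summed to less than either stage of RA-gastruloids. Per kilobase of transcript, the leading gene was EPHB4 in naïve H9 (51.7 CPM per kb) and EPHA1 in primed H9 and primed RUES2-GLR (54.8 and 91.4). It was EFNB1 in early (42.4) and PLXNB2 in late RA-gastruloids (38.03). In mouse it was Epha2 in naïve ESCs, EpiLCs and early gastruloids (46.2, 46.95 and 51.5 CPM per kb) and Efna2 in late gastruloids (43.4).

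Each comparison was tested across all expressed genes with edgeR, and a gene was called when its Benjamini-Hochberg adjusted p was under 0.05 and its absolute log2 fold change above 1. From naïve to primed H9, 35 members were called higher and 10 lower. Of the 18300 human genes tested, 47.8% were called in that comparison, 25.5% higher and 22.3% lower. The median log2 change was 1.73 for the members and 0.00485 for all genes. Lineage lists moved in this comparison too. Trophoblast and amnion markers summed to 292 to 320 CPM in naïve and 6.15 to 6.77 in primed H9. Fibroblast markers summed to 665 to 686 CPM in naïve H9 (6 of 6 at 1 CPM or more) and 267 to 276 CPM in primed H9 (3 of 6, with DCN and LUM at 0). Their part in the levels of members that were higher in naïve H9 was not tested. Between primed H9 and primed RUES2-GLR, which compares lines and no stage, 21 members were higher in RUES2-GLR and 1 lower, against 29.3% of all genes (17.1% and 12.2%). The median there was 0.719 for the members and -0.119 for all genes. From primed RUES2-GLR to early RA-gastruloids 11 members were higher and 24 lower, against 29.6% of all genes (12% and 17.6%), with medians of -0.495 and 0.0841. In the late stage, 22 members stood higher and 19 lower than in early RA-gastruloids, against 24.9% of all genes (11.8% and 13.2%), with medians of 0.3 for members and 0 for all genes. Without late replicate 1 the counts were 16 and 19, and without late replicate 2 they were 22 and 18.

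In mouse, 18 of the 60 members tested were higher and 15 lower in EpiLCs than in naïve ESCs, where 29.8% of the 15003 genes tested were called (17.7% higher and 12.1% lower). From naïve ESCs to early gastruloids 19 were higher and 9 lower (23%, 16.2% and 6.81% of all genes). From EpiLCs to early gastruloids 13 were higher and 11 lower (20.9%, 11.7% and 9.24%). These 3 comparisons share samples and are given side by side only. From early to late mouse gastruloids 38 members were higher and 7 lower, against 39.2% of all genes (20.1% and 19.1%). The median log2 change in this step was 1.62 for the members and -0.0302 for all genes. The share of members called was above the share of all genes called in each of the 8 comparisons, by the least between primed H9 and primed RUES2-GLR, where 32.8% of members were called. The members are protein-coding only, whereas all genes tested, here and below, include other gene types, so the sets are not alike. The 8 comparisons also share groups and are not separate results.

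**Figure D2:**
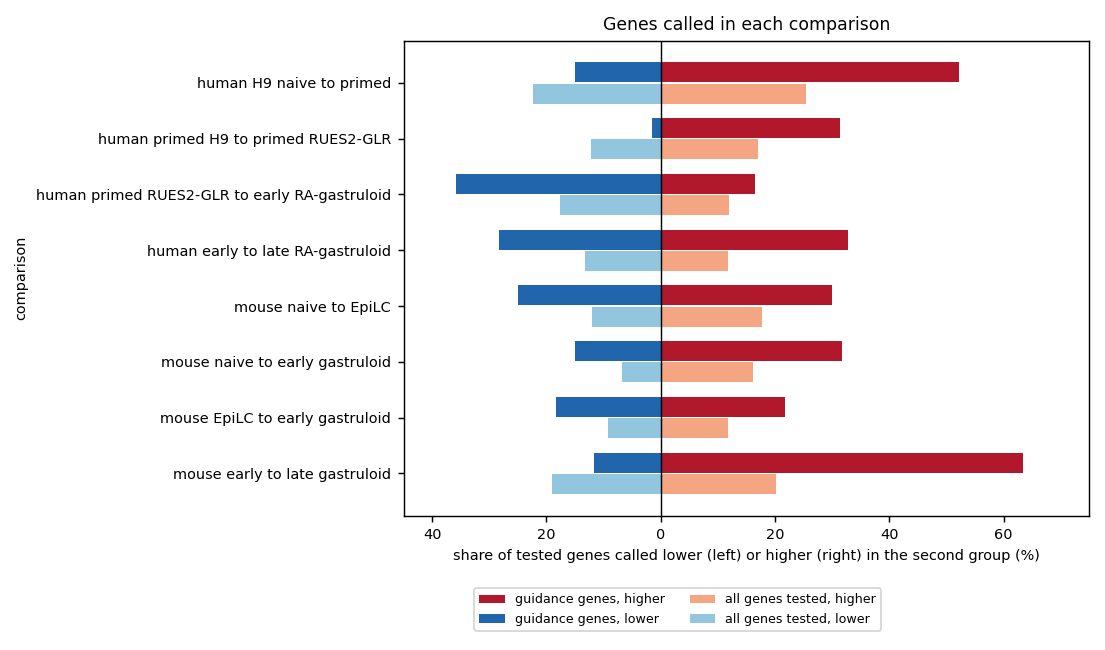
Share of tested genes, in percent, called higher (right of 0) or lower (left of 0) in the second group of each of the 8 comparisons, for guidance genes (dark bars; 67 human and 60 mouse) and all genes tested (light bars; 18300 human and 15003 mouse). The longest bar is that of early to late mouse gastruloids, where 63.3% of guidance genes and 20.1% of all genes were called higher.

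The largest rises on the way from primed RUES2-GLR to early RA-gastruloids were those of UNC5C, a netrin receptor, PLXNA2, a semaphorin receptor, and SLIT2 and SLIT3, both ROBO ligands. Among the largest falls was that of EPHA1. The RefSeq promoter table (GRCh38.p14) held promoters of 58 of the 67 human members, 90 promoters in all. The 250 bases before the start of PLXNA2, SLIT2, SLIT3 and EPHA1 are shown because the first 3 of these genes and the last turned in opposite directions at that step. The genes are PLXNA2 (ENSG00000076356), SLIT2 (ENSG00000145147), SLIT3 (ENSG00000184347) and EPHA1 (ENSG00000146904). Their windows lie outside the annotated gene, upstream of its first exon, at chr1:208244385-208244634 (minus strand), chr4:20251655-20251904 (plus strand), chr5:169301140-169301389 (minus strand) and chr7:143408857-143409106 (minus strand). Capitals mark the GC box GGGCGG or its reverse complement CCGCCC:
PLXNA2: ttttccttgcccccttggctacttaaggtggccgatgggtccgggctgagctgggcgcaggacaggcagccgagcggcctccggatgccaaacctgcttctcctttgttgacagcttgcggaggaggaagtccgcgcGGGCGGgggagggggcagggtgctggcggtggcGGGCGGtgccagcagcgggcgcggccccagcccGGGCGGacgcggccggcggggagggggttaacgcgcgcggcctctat
SLIT2: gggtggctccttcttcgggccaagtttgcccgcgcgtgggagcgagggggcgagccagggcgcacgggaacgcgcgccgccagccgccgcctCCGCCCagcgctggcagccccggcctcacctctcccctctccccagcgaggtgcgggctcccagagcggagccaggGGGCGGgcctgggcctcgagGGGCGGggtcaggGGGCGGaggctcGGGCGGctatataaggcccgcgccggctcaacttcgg
SLIT3: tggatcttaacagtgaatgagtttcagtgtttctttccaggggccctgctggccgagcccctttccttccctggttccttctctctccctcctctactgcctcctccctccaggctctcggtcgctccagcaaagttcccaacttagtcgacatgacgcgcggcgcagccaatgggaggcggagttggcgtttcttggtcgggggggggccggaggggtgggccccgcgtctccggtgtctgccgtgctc
EPHA1: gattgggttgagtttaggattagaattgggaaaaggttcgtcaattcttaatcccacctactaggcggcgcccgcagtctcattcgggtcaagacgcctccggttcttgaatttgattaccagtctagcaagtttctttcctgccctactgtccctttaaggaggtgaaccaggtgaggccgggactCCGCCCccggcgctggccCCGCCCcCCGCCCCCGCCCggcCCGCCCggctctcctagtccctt
The 3 motifs searched on both strands were the TCF/LEF motif ATCAAAG, the nuclear receptor half-site AGGTCA and the GC box, and no marked match overlaps another. The GC box was found 3 times in the PLXNA2 window, 5 times in those of SLIT2 and EPHA1, and not in that of SLIT3. ATCAAAG and AGGTCA were in none of the 4 windows. Over all 35116 promoters of that length, 42.6% held a GC box, 2.26% ATCAAAG and 12.1% AGGTCA. Over the 90 member promoters 71.1%, 3.33% and 10% did. The median GC content was 65% in the member promoters and 58% in all. A match is a run of letters and not a shown binding site.

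The ephrin-A ligands, which are tethered to the membrane by a lipid anchor, summed to 122 and 132 CPM in primed RUES2-GLR and 88.6 and 82.2 in RA-gastruloids at the late stage. In mouse their sum was 42.1 and 44.1 CPM in early gastruloids and 218 and 214 in late ones. EFNA1 stood at 27.2 and 28.9 CPM in naïve H9 and 3.005 and 3.17 in primed H9 (log2 fold change -3.17 ± 0.17, edgeR adjusted p = 7.98e-17), one of the 5 largest falls of that comparison. It fell again within RA-gastruloids, from 18.4 and 18.9 to 4.36 and 2.75 CPM (log2 fold change -2.304 ± 0.19, edgeR adjusted p = 8.97e-12). In mouse it rose at that step, from 2.62 and 2.02 to 8.05 and 6.999 CPM (log2 fold change 1.66 ± 0.25, edgeR adjusted p = 4.12e-08). In mouse, Efna4 was lower in EpiLCs than in naïve ESCs, 6.505 and 8.42 against 29.9 and 26.8 CPM (log2 fold change -1.85 ± 0.14, edgeR adjusted p = 7.2e-18). Efna3 was higher in early gastruloids than in EpiLCs, 15.7 and 16.01 against 4.88 and 4.14 CPM (log2 fold change 1.85 ± 0.16, edgeR adjusted p = 8.25e-15). EFNA3 fell in late RA-gastruloids from 28.1 and 30.9 to 9.31 and 8.36 CPM. EFNA2 was called higher in the late stage in both species, and Efna1, Efna4 and Efna5 in mouse. Efna5 went from 2.77 and 2.199 to 49.3 and 50.6 CPM and Efna2 from 5.68 and 6.16 to 97.6 and 87.4.

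All 3 ephrin-B ligands, transmembrane proteins that signal back into the cell that carries them, were called higher in late than in early mouse gastruloids, and 2 of 3, EFNB2 and EFNB3, were in RA-gastruloids. Of all genes, 20.1% were called higher at that step in mouse and 11.8% in human. EFNB2, known as a marker of arteries and of the posterior part of each somite, stood at 25.4 and 26.4 CPM in RA-gastruloids when early and 94.9 and 99.2 when late (log2 fold change 1.904 ± 0.12, edgeR adjusted p = 1.81e-14). In mouse it was at 21.3 and 24.01 CPM early and 138 and 139 late (log2 fold change 2.62 ± 0.082, edgeR adjusted p = 9.67e-36). The replicate values did not overlap between the stages in either species. Of the human EFNB2 exon bases 36.4% are also covered by another annotated gene, and the counting did not use strand. Efnb2 also rose at the exit from naïve pluripotency in mouse, from 1.81 and 1.88 CPM in naïve ESCs to 40.2 and 37.97 in EpiLCs (log2 fold change 4.38 ± 0.17, edgeR adjusted p = 5.8e-31). It was higher in early gastruloids than in naïve ESCs too (log2 fold change 3.58 ± 0.18, edgeR adjusted p = 4.43e-25). EFNB2 was at 12.9 and 13.8 CPM in naïve and 11.9 and 12.5 in primed H9. EFNB1 differed between the human primed lines, with 15.4 and 18.8 CPM in H9 and 78.04 and 81.9 in RUES2-GLR (log2 fold change 2.199 ± 0.14, edgeR adjusted p = 3.83e-14). In RA-gastruloids it stood at 138 and 142 CPM early and 106 and 86.6 late, with no call. Its mouse counterpart rose from 15.4 and 15.2 to 126 and 124 CPM in the same step, and Efnb3 from 1.93 and 2.29 to 119 and 133.

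Among the EPHA receptors, 8 of 9 were higher in primed than in naïve H9, and EPHA7 alone was lower (25.5% and 22.3% of all genes). From early to late RA-gastruloids 6 were lower and 2 higher (13.2% and 11.8% of all genes). In mouse 2 of the 7 tested were lower and 3 higher at that step (19.1% and 20.1% of all genes). EPHA1 fell stepwise in human, from 411 and 447 CPM in primed RUES2-GLR to 8.46 and 9.99 in early RA-gastruloids (log2 fold change -5.54 ± 0.14, edgeR adjusted p = 2.93e-24). It was down to 1.21 and 1.12 CPM at the late stage (log2 fold change -2.96 ± 0.23, edgeR adjusted p = 1.81e-12). Mouse Epha1 was also low in naïve cells, at 0.558 and 0.269 CPM, and rose to 42.4 and 49.9 in EpiLCs (log2 fold change 6.899 ± 0.23, edgeR adjusted p = 2.93e-34). It was at its highest in early gastruloids, at 79.6 and 79.6 CPM (log2 fold change 7.66 ± 0.20, edgeR adjusted p = 1.44e-38 from naïve ESCs). It fell to 9.34 and 9.68 CPM in late gastruloids (log2 fold change -3.07 ± 0.11, edgeR adjusted p = 7.32e-32). The fall from early to late was called in both species, and its size did not pass the test for a difference between them (human minus mouse 0.25 ± 0.31, edgeR adjusted p = 0.513).

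EPHA2, a receptor of ephrin-A1 found on many epithelia, was the only other member called lower in both late stages. It went from 109 and 115 to 45.5 and 33.9 CPM in human and from 236 and 246 to 34.1 and 37.97 in mouse (log2 fold change -2.75 ± 0.073, edgeR adjusted p = 3.41e-39). Before that, Epha2 stood at 209.5 and 222 CPM in naïve ESCs and 211 and 228 in EpiLCs, with no call. EPHA8, another ephrin-A receptor, also fell in human, from 17.7 and 20.4 CPM in primed RUES2-GLR to 1.63 and 1.61 in early RA-gastruloids (log2 fold change -3.51 ± 0.25, edgeR adjusted p = 3.41e-13). It had 0 counts in both late samples, at least 7.199-fold lower than early when the floor of 3 counts per library is used. Mouse Epha8 appeared in EpiLCs, at 5.62 and 4.61 CPM against 1 count in the naïve samples (a count ratio of 90.1 with a 95% interval of 15.8 to 3590.0, edgeR adjusted p = 3.57e-12). Early gastruloids had 1.38 and 0.967 CPM, lower than EpiLCs (log2 fold change -2.02 ± 0.32, edgeR adjusted p = 1.97e-07).

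EPHA4, which binds both ephrin-A and ephrin-B ligands and marks hindbrain segments and mesoderm, separated the human lines. It stood at 8.88 and 8.43 CPM in primed H9 and 218 and 209.6 in primed RUES2-GLR (log2 fold change 4.64 ± 0.14, edgeR adjusted p = 1.61e-22), the largest rise between the lines. RA-gastruloids held 240.3 and 249.5 CPM early, with no call. They held 123 and 127 CPM late, and this difference missed the fold threshold (log2 fold change -0.97 ± 0.11, edgeR adjusted p = 9.17e-09). In mouse the gene was at 37.5 and 38.8 CPM in naïve ESCs and 1.77 and 2.11 in EpiLCs (log2 fold change -4.25 ± 0.16, edgeR adjusted p = 2.63e-31). Early gastruloids, made from the naïve cells, had 10.4 and 11.2 CPM (log2 fold change 2.41 ± 0.19, edgeR adjusted p = 1.76e-16 from EpiLCs). That was lower than in naïve ESCs (log2 fold change -1.84 ± 0.11, edgeR adjusted p = 1.89e-22), and late gastruloids had 126 and 125 CPM.

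EPHA7 was higher in primed RUES2-GLR than in primed H9, 76.2 and 57.4 against 10.6 and 12.9 CPM (log2 fold change 2.51 ± 0.15, edgeR adjusted p = 4.32e-15). It dropped to 8.65 and 8.88 CPM in the early aggregates and returned to 62.1 and 73.6 in the late ones (log2 fold change 2.95 ± 0.16, edgeR adjusted p = 5.87e-16). Epha7 in mouse rose from 5.58 and 6.64 CPM in naïve ESCs to 11.1 and 13.6 in EpiLCs, with 17.7 and 15.5 CPM in early gastruloids and a rise to 109.9 and 108 in late ones. EPHA3, expressed in embryonic mesoderm, rose from 1.23 and 1.27 CPM in primed RUES2-GLR to 4.804 and 5.85 in early RA-gastruloids (log2 fold change 2.096 ± 0.34, edgeR adjusted p = 3.92e-06) and to 11.5 and 13.3 late. In early mouse gastruloids it had 3 counts over both samples, and in late ones 8.87 and 7.297 CPM (a count ratio of 86.2 with a 95% interval of 28.8 to 424, edgeR adjusted p = 5.74e-17). EPHA5, EPHA6 and EPHA10 stayed under 5 CPM in every human sample. EPHA5 was the single member called lower in RUES2-GLR than in H9, with 0 counts in RUES2-GLR and 17 in all in H9. No fold is given because both are at or near the floor.

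Of the EPHB receptors, all 5 were called higher in late mouse gastruloids and 3 of 5, EPHB2, EPHB3 and EPHB6, in late RA-gastruloids. The shares of all genes called higher there were 20.1% and 11.8%. The human rise of EPHB3 lay near the fold threshold, from 41.1 and 44.8 to 109 and 83.6 CPM (log2 fold change 1.17 ± 0.14). EPHB2 first fell from 158 and 172 CPM in primed RUES2-GLR to 13.9 and 12.5 in early RA-gastruloids (log2 fold change -3.64 ± 0.13, edgeR adjusted p = 1.78e-20) and then returned to 82.4 and 76.03 (log2 fold change 2.58 ± 0.13, edgeR adjusted p = 7.4e-17). Ephb2 went from 22.9 and 23.8 to 137 and 132 CPM in mouse (log2 fold change 2.53 ± 0.081, edgeR adjusted p = 4.04e-35). The human and mouse changes did not pass the test for a difference (0.20 ± 0.15, edgeR adjusted p = 0.261). EPHB3 was higher in primed RUES2-GLR than in primed H9, 33.5 and 41.1 against 2.59 and 3.84 CPM (log2 fold change 3.404 ± 0.18, edgeR adjusted p = 3.39e-16). EPHB4, the receptor known as the venous partner of ephrin-B2, was the most abundant member per kilobase in naïve H9. It stood at 318 and 347 CPM there and 228 and 239 in primed H9 with no call. In mouse it rose from 89.2 and 86.9 to 189 and 193 CPM in late gastruloids. EPHB6, whose kinase domain lacks activity, rose between early and late stages from 6.82 and 5.96 to 36.3 and 24.97 CPM in human and from 4.64 and 5.63 to 12.1 and 18.5 in mouse.

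**Figure D3:**
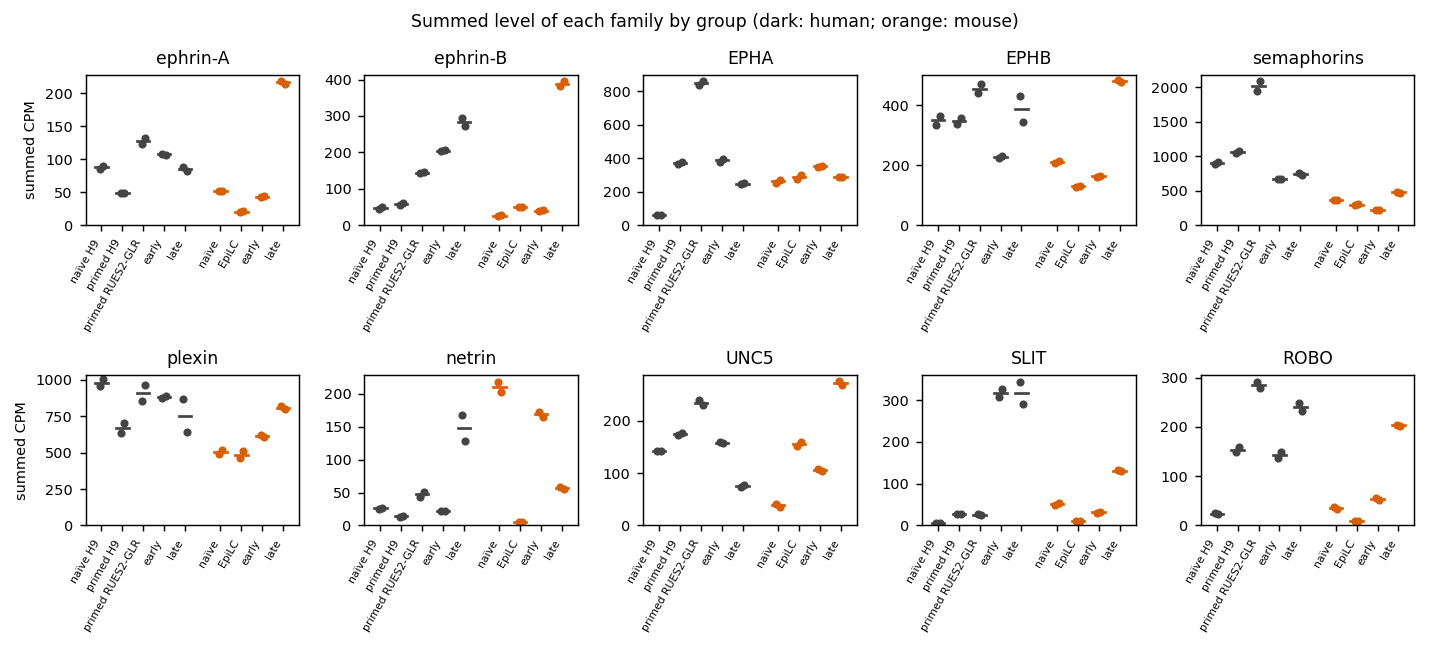
Summed CPM of the members of each family in each sample (points) and the mean of the 2 samples (bars), with the human groups in dark grey and the mouse groups in orange, on axes that start at 0. Ephrin-B sums rise to 295 and 274 CPM in late RA-gastruloids and 382 and 395 CPM in late mouse gastruloids, and SLIT sums rise from 27.2 and 24.2 to 307 and 326 CPM between primed RUES2-GLR and early RA-gastruloids.

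The semaphorins were the largest family. Of 20 human genes 12 were higher and 1 lower in primed than in naïve H9 (25.5% and 22.3% of all genes). Early RA-gastruloids had 1 higher and 9 lower than primed RUES2-GLR (12% and 17.6% of all genes). The late stage had 6 higher and 6 lower than the early one (11.8% and 13.2%). In mouse, of 19 tested, none was called higher and 9 were called lower in early gastruloids than in EpiLCs (11.7% and 9.24%). In late gastruloids 10 were higher and 3 lower (20.1% and 19.1%). Class 5 semaphorins, transmembrane proteins with thrombospondin repeats, had the largest rises from naïve to primed H9. SEMA5A had 2 counts over both naïve samples and 32.1 and 29.8 CPM in primed H9 (a count ratio of 556 with a 95% interval of 154 to 4596, edgeR adjusted p = 9.75e-22). SEMA5B stood at 0.261 and 0.344 CPM in naïve and 28.2 and 33.1 in primed H9 (log2 fold change 6.64 ± 0.26, edgeR adjusted p = 1.46e-20). Neither was low in naïve mouse ESCs, where Sema5a was at 9.49 and 9.33 CPM and Sema5b at 18.7 and 16.3. Sema5b was lower in early gastruloids, at 4.89 and 4.31 CPM (log2 fold change -1.89 ± 0.17, edgeR adjusted p = 4.71e-15). In the late stage SEMA5A rose in both species, from 12.01 and 13.02 to 50.8 and 59.5 CPM in human and from 2.91 and 4.49 to 63.5 and 57.3 in mouse.

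The secreted class 3 semaphorins, ligands of neuropilin and plexin receptors, include a chromosomal run of 3 genes, SEMA3E, SEMA3A and SEMA3D. SEMA3A, the classical repellent of sensory axons, was at 1.73 and 1.95 CPM in naïve and 56.3 and 57.3 in primed H9 (log2 fold change 4.95 ± 0.17, edgeR adjusted p = 4.56e-22). SEMA3D rose in the same step to 4.33 and 6.004 CPM from 4 counts over both naïve samples (a count ratio of 51.01 with a 95% interval of 19.7 to 188, edgeR adjusted p = 3.3e-13). SEMA3E, a ligand of PLXND1 that acts without neuropilins, fell from 16.3 and 14.2 to 0.485 and 0.408 CPM within RA-gastruloids (log2 fold change -5.03 ± 0.28, edgeR adjusted p = 6e-16), the largest fall of that comparison among the members above 5 CPM. SEMA3D rose at that step to 13.8 and 16.8 CPM. In mouse, Sema3a had 3 counts over both early samples and 34.1 and 33.5 CPM in late gastruloids (a count ratio of 357 with a 95% interval of 121 to 1735, edgeR adjusted p = 1.07e-31). Sema3e was highest in EpiLCs, at 26.5 and 25.4 CPM, and lower in early gastruloids, at 7.26 and 6.07 (log2 fold change -1.92 ± 0.14, edgeR adjusted p = 2.48e-18).

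SEMA3C, which is known from the outflow tract of the heart and from neural crest, rose within RA-gastruloids from 9.51 and 8.07 to 102 and 131 CPM (log2 fold change 3.72 ± 0.17, edgeR adjusted p = 7.11e-18). In mouse it was lower in early gastruloids than in EpiLCs, 2.91 and 1.76 against 10.2 and 10.2 CPM (log2 fold change -2.04 ± 0.21, edgeR adjusted p = 1.07e-12), and then rose to 19.7 and 18.9 CPM. SEMA3G fell within RA-gastruloids, from 14.9 and 14.2 to 2.57 and 1.73 CPM (log2 fold change -2.68 ± 0.24, edgeR adjusted p = 4.46e-11). SEMA3F also fell, from 112 and 112 to 24.7 and 15.7 CPM, whereas Sema3f rose from 4.39 and 4.22 to 42.4 and 50.2 CPM in mouse.

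The 3 semaphorins called lower in late mouse gastruloids were all of class 4, transmembrane proteins that bind B-type plexins. Sema4f went from 7.51 and 8.44 to 0.234 and 1.49 CPM (log2 fold change -3.31 ± 0.36, edgeR adjusted p = 5.88e-12). Sema4b went from 105 and 106 to 30.9 and 30.2 (log2 fold change -1.78 ± 0.079, edgeR adjusted p = 2.46e-28). Sema4d fell from 31.9 and 31.9 to 13.1 and 12.96 CPM. The class did not fall as a whole. Sema4c was called higher late, from 11.5 and 9.67 to 91.5 and 90.8 CPM (log2 fold change 3.08 ± 0.099, edgeR adjusted p = 4.34e-35). Sema4a was already down in early gastruloids, at 1.88 and 2.29 CPM against 7.26 and 7.98 in naïve ESCs (log2 fold change -1.91 ± 0.24, edgeR adjusted p = 4.78e-10) and 10.5 and 10.9 in EpiLCs (log2 fold change -2.39 ± 0.22, edgeR adjusted p = 1.99e-14). The human gene fell at the same turn, from 18.7 and 22.3 CPM in primed RUES2-GLR to 2.21 and 2.42 in early RA-gastruloids. SEMA4F and SEMA4B were not called from early to late in human, and late SEMA4F stood at 18.4 and 19.4 CPM and SEMA4B at 46.01 and 34.5.

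SEMA6A, a transmembrane ligand of A-type plexins, was the most abundant semaphorin per kilobase in naïve H9 and primed RUES2-GLR. It was at 452 and 436 CPM in naïve H9, 284 and 259 in primed H9 and 667 and 689 in primed RUES2-GLR. RA-gastruloids held 102 and 108 CPM early and 50.96 and 50.8 late. In naïve mouse ESCs it was nearly absent, with 5 counts over both samples. It stood at 36.7 and 45.7 CPM in EpiLCs (a count ratio of 157 with a 95% interval of 67.2 to 486, edgeR adjusted p = 5.46e-32). In early gastruloids it was at 12.1 and 11.3 CPM (a count ratio of 43.2 with a 95% interval of 18.4 to 134, edgeR adjusted p = 2.11e-20 against naïve ESCs). That was lower than in EpiLCs (log2 fold change -1.84 ± 0.11, edgeR adjusted p = 2.11e-21), and late gastruloids had 53.1 and 44.1 CPM. SEMA6D was higher in primed RUES2-GLR than in primed H9, 42.4 and 35.7 against 4.12 and 3.502 CPM (log2 fold change 3.42 ± 0.16, edgeR adjusted p = 1.22e-17). In RA-gastruloids it fell to 6.05 and 5.85 CPM early and rose to 85.3 and 93.5 late (log2 fold change 3.904 ± 0.16, edgeR adjusted p = 1.89e-19). Sema6d was under 1 CPM at every mouse stage before the late one, where it stood at 30.00 and 29.5 CPM (log2 fold change 6.37 ± 0.26, edgeR adjusted p = 1.45e-29). Sema6c and Sema7a, the latter the only lipid-anchored semaphorin, both dropped between naïve ESCs and early gastruloids. Sema6c went from 36.7 and 38.8 to 7.31 and 10.4 CPM (log2 fold change -2.15 ± 0.12, edgeR adjusted p = 1.19e-22) and Sema7a from 15.8 and 15.5 to 2.12 and 2.11 CPM (log2 fold change -2.88 ± 0.21, edgeR adjusted p = 4.36e-18).

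Among the plexins, the receptors of semaphorins, PLXNB2 and PLXNA1 were abundant at all stages in both species. PLXNB2 stood at 169 to 375 CPM and PLXNA1 at 63.5 to 243 CPM over the human samples. Neither was called from early to late in either species. PLXNA2 was the plexin that turned most in human. It fell from 69.1 and 65.00 CPM in naïve to 4.96 and 5.77 in primed H9 (log2 fold change -3.61 ± 0.14, edgeR adjusted p = 1.49e-20). From 8.598 and 7.96 CPM in primed RUES2-GLR it rose to 307 and 314 in early RA-gastruloids (log2 fold change 5.202 ± 0.16, edgeR adjusted p = 1.53e-22) and was at 149.5 and 119.7 in late ones. In mouse it was between 2.30 and 5.58 CPM until the early stage and reached 90.4 and 91.6 CPM late. PLXND1, the receptor of SEMA3E with a known part in vessel patterning, fell from 452 and 472 CPM in naïve to 97.8 and 112 in primed H9 (log2 fold change -2.13 ± 0.11, edgeR adjusted p = 4.74e-17). Within RA-gastruloids it fell from 156 and 155 to 28.7 and 22.3 CPM (log2 fold change -2.59 ± 0.12, edgeR adjusted p = 1.51e-17). Mouse Plxnd1 rose from 1.53 and 1.35 CPM in naïve ESCs to 9.04 and 9.23 in early gastruloids (log2 fold change 2.67 ± 0.26, edgeR adjusted p = 1.55e-13) and to 108 and 93.2 late. Over the endothelial marker list the mouse sum was 125 to 128 CPM early and 125 to 127 late. Only 1 of the 5 markers reached 1 CPM in both early samples, with Emcn at 0, and all 5 did late. In naïve ESCs 1 of 5 did too, at a sum of 124 to 126 CPM. The human sums were 4.04 to 4.42 CPM early and 9.89 to 11.1 late.

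PLXNA4 fell from 12.8 and 14.3 CPM in primed RUES2-GLR to 1.44 and 0.404 in early RA-gastruloids (log2 fold change -3.82 ± 0.33, edgeR adjusted p = 1.63e-11) and stayed under 1 CPM late. In mouse it was under 0.3 CPM in every sample before the late stage and reached 25.4 and 28.1 CPM there (log2 fold change 6.66 ± 0.29, edgeR adjusted p = 1.03e-28). PLXNB3 fell from 5.33 and 6.25 CPM in naïve to 1.05 and 1.19 in primed H9 (log2 fold change -2.33 ± 0.26, edgeR adjusted p = 2.12e-09), and 20.4% of its exon bases overlap SRPK3. PLXNB1, a receptor of SEMA4D, rose from naïve to primed in both species, from 30.8 and 32.1 to 121 and 128 CPM in H9 and from 18.1 and 17.3 to 55.1 and 62.6 CPM in mouse.

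Netrin-1 gave opposite courses in the 2 species. NTN1, the secreted netrin of the floor plate, was at 40.2 and 48.8 CPM in primed RUES2-GLR and 18.1 and 17.9 in early RA-gastruloids. It rose to 149 and 114 CPM late (log2 fold change 2.87 ± 0.15, edgeR adjusted p = 6.72e-17). Mouse Ntn1 was at 216 and 199.6 CPM in naïve ESCs and at 0.739 and 0.724 CPM in EpiLCs (log2 fold change -8.13 ± 0.14, edgeR adjusted p = 1.93e-48). Early gastruloids, made from the naïve cells, had 167 and 159 CPM, more than EpiLCs (log2 fold change 7.79 ± 0.14, edgeR adjusted p = 1.21e-46). Against naïve ESCs this missed the fold threshold (log2 fold change -0.34 ± 0.06, edgeR adjusted p = 1.92e-06). Late gastruloids were lower than early ones, at 32.5 and 31.7 CPM (log2 fold change -2.35 ± 0.077, edgeR adjusted p = 1.52e-34). NTN4, a netrin of basement membranes, fell from 8.47 and 6.94 CPM in naïve to 1.61 and 1.81 in primed H9 (log2 fold change -2.14 ± 0.23, edgeR adjusted p = 1.01e-09). It rose within RA-gastruloids from 3.36 and 2.73 to 13.9 and 11.1 CPM. All 4 human netrins were called higher in the late stage, against 11.8% of all genes, but NTN3 and NTN5 stayed at or under 3.05 CPM.

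**Figure D4:**
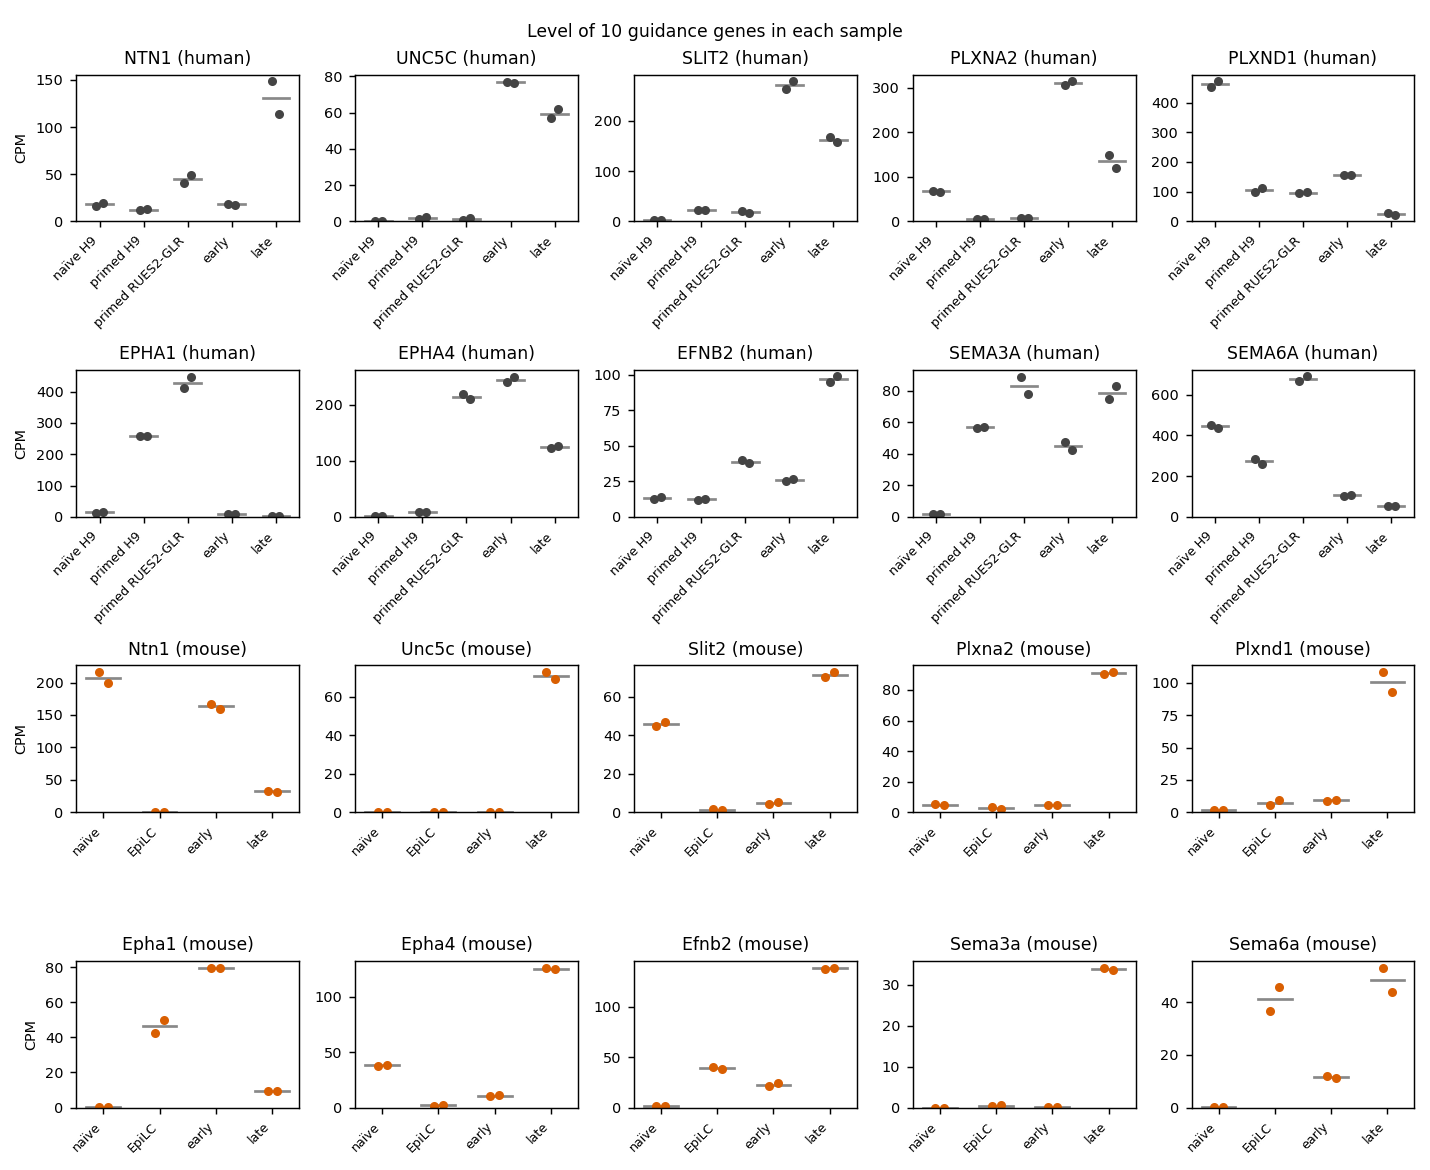
CPM of 10 guidance genes in each sample (points) and the mean of the 2 samples of a group (bars), human in the upper 2 rows and mouse in the lower 2, on axes that start at 0 and differ between panels. NTN1 rises from 18.1 and 17.9 CPM in early to 149 and 114 CPM in late RA-gastruloids, and Ntn1 falls from 167 and 159 to 32.5 and 31.7 CPM in mouse, while Unc5c, Plxna2, Plxnd1 and Sema3a are under 10 CPM until the late mouse stage.

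The UNC5 receptors, through which netrins repel, did not move together. UNC5D rose from 2.61 and 2.35 CPM in naïve to 96.3 and 97.7 in primed H9 (log2 fold change 5.28 ± 0.16, edgeR adjusted p = 2.95e-23). Within RA-gastruloids it fell from 26.8 and 24.5 to 3.35 and 4.18 CPM (log2 fold change -2.81 ± 0.17, edgeR adjusted p = 3.44e-15). UNC5A fell from 30.2 and 42.7 CPM in primed RUES2-GLR to 0.384 and 0.404 in early RA-gastruloids (log2 fold change -6.45 ± 0.31, edgeR adjusted p = 1.16e-17). At that step UNC5C rose from 0.983 and 1.59 to 77.2 and 76.4 CPM (log2 fold change 6.097 ± 0.25, edgeR adjusted p = 2.36e-19), and it was at 56.9 and 62.1 CPM in the late stage. UNC5B was the highest of the family per kilobase in naïve H9 (20.1 CPM per kb) and UNC5C in late RA-gastruloids (5.57 CPM per kb). In mouse Unc5c came up one stage later. It had 4 counts over both early samples and 72.6 and 68.95 CPM in late gastruloids (a count ratio of 561 with a 95% interval of 219 to 2064, edgeR adjusted p = 2.58e-39). Unc5a rose to 6.06 and 5.07 CPM in EpiLCs from 0.1395 and 0.359 in naïve ESCs (log2 fold change 4.26 ± 0.45, edgeR adjusted p = 3.04e-12). Unc5b stood at 98.9 CPM or more in every mouse sample but the naïve ones, at 36.4 and 30.9 CPM.

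The SLITs, secreted ligands that repel axons and migrating cells, rose on the way into RA-gastruloids. There 3 of 3 were called higher in early RA-gastruloids than in primed RUES2-GLR, against 12% of all genes. SLIT2 stood at 20.7 and 17.5 CPM before that step and 263 and 278 after it (log2 fold change 3.78 ± 0.13, edgeR adjusted p = 4e-21). SLIT3 stood at 3.44 and 3.82 CPM before and 34.2 and 35.3 after (log2 fold change 3.297 ± 0.21, edgeR adjusted p = 9.88e-15). SLIT1 rose further in the late stage, from 10.3 and 12.2 to 117 and 86.1 CPM (log2 fold change 3.18 ± 0.16, edgeR adjusted p = 3.18e-17). In mouse all 3 were higher in early gastruloids than in EpiLCs and higher again in late gastruloids (11.7% and 20.1% of all genes). Slit2 was already at 44.6 and 46.6 CPM in naïve ESCs, against 1.48 and 1.18 in EpiLCs (log2 fold change -5.15 ± 0.18, edgeR adjusted p = 1.8e-33). Early gastruloids had 4.49 and 5.37 CPM (log2 fold change -3.24 ± 0.12, edgeR adjusted p = 8.42e-31 from naïve ESCs). Its late level was 70.04 and 72.7 CPM.

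ROBO1, the main receptor here, made up most of the ROBO level per kilobase in each human group, and rose from 23.1 and 21.7 CPM in naïve to 134 and 146 in primed H9. It fell from 274.5 and 261.3 CPM in primed RUES2-GLR to 120.8 and 133.4 in early RA-gastruloids (log2 fold change -1.078 ± 0.11, edgeR adjusted p = 3.8e-10). Late RA-gastruloids had 204.5 and 190.9 CPM, with no call. Mouse Robo1 fell from 37.3 and 33.5 CPM in naïve ESCs to 7.097 and 8.22 in EpiLCs (log2 fold change -2.16 ± 0.12, edgeR adjusted p = 6.33e-23). Early gastruloids had 46.9 and 43.8 CPM (log2 fold change 2.53 ± 0.11, edgeR adjusted p = 1.01e-27 from EpiLCs), with no call against naïve ESCs. Late ones had 121 and 122 CPM. ROBO2 rose in the late stage of both species, from 10.5 and 11.2 to 38.7 and 37.7 CPM in human. In mouse it went from 5 counts over both early samples to 79.5 and 73.6 CPM (a count ratio of 486 with a 95% interval of 208 to 1500.0, edgeR adjusted p = 5.33e-40). Robo4, the member known from endothelium, was at 0.837 and 0.449 CPM in naïve ESCs and 1.03 and 0.461 in EpiLCs, and rose to 7.61 and 7.56 CPM in early gastruloids (log2 fold change 3.63 ± 0.37, edgeR adjusted p = 6.68e-13 from naïve ESCs, and log2 fold change 3.54 ± 0.34, edgeR adjusted p = 1.69e-13 from EpiLCs). ROBO4 did not reach 1 CPM in any human sample.

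The other genes of these pathways were counted from a list of 20 co-receptors and binding partners and 35 intracellular effectors. Of 18 partners tested in human, 11 were higher and 1 lower in late than in early RA-gastruloids, against 11.8% and 13.2% of all genes. Of 17 tested in mouse 14 were higher and none lower in late gastruloids, against 20.1% and 19.1%. The neuropilins, co-receptors of class 3 semaphorins, rose in both species. In human, NRP1 went from 12.2 and 10.1 to 75.6 and 79.4 CPM (log2 fold change 2.79 ± 0.16, edgeR adjusted p = 1.92e-15) and NRP2 from 52.6 and 55.1 to 512 and 463 CPM (log2 fold change 3.18 ± 0.11, edgeR adjusted p = 1.05e-20). In mouse, Nrp1 went from 0.938 and 0.704 to 195 and 201 CPM (log2 fold change 7.84 ± 0.13, edgeR adjusted p = 1.39e-48) and Nrp2 from 33.4 and 32.7 to 153 and 148 CPM (log2 fold change 2.18 ± 0.075, edgeR adjusted p = 9.96e-34). DCC, the attractive netrin receptor, rose from 0.865 and 0.707 to 7.47 and 8.77 CPM within RA-gastruloids (log2 fold change 3.33 ± 0.35, edgeR adjusted p = 1.47e-09). Neo1, its relative neogenin, went from 222 and 224 CPM in naïve mouse ESCs to 55.9 and 60.3 in EpiLCs (log2 fold change -1.93 ± 0.069, edgeR adjusted p = 1.56e-32). Early gastruloids had 193 and 198 CPM of it (log2 fold change 1.74 ± 0.068, edgeR adjusted p = 2.68e-30 from EpiLCs), with no call against naïve ESCs. Among the further partners, Kdr, a receptor of vascular growth factor, rose from 0.988 and 0.879 to 135 and 129 CPM in late mouse gastruloids. Flrt3, a ligand of UNC5 proteins, rose from 3.803 and 4.05 to 170.3 and 159.6 CPM. The 1 partner lower in late RA-gastruloids was L1CAM, an adhesion molecule named after its values were seen, at 42.4 and 44.3 CPM early and 3.93 and 1.94 late. Of 34 effectors tested, 16 were higher and 5 lower in primed than in naïve H9, against 25.5% and 22.3% of all genes. Among the higher was DPYSL3 (22.8 and 20.7 to 882 and 870.5 CPM), a cytoplasmic mediator of semaphorin signals. In late mouse gastruloids 16 were higher and 4 lower (20.1% and 19.1% of all genes), and in late RA-gastruloids 6 and 2 (11.8% and 13.2% of all genes).

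The changes from early to late were set against each other in 1 fit over 14007 genes matched by symbol. In it 35.4% of genes differed between the models, 16.7% with the human and 18.7% with the mouse change higher. Of the 67 members 38 differed, 9 with the human and 29 with the mouse change higher. Of the 60 members tested in each species, 17 were called higher in both late stages, among them EFNB2, EPHA7, EPHB2, ROBO2, SEMA3C, SEMA6D and SLIT1. EPHA1 and EPHA2 were called lower in both. A further 19 were called in mouse alone and 9 in human alone. Of the 12002 genes with a unique matching symbol that were tested in each species, 4.73% were called higher in both, 4.699% lower in both, 21.7% in mouse alone and 8.74% in human alone. The 60 members gave 28.3%, 3.33%, 31.7% and 15%. Some members called higher in both lay near the fold threshold in human. Among them were EFNA2, EPHB3 and SEMA6C (log2 fold change 1.015 ± 0.15, 1.17 ± 0.14 and 1.096 ± 0.15). Fewer human members were called higher when late replicate 1 was left out. UNC5C, SEMA3A and ROBO2 differed with the mouse change higher (edgeR adjusted p = 1e-22, 4.27e-19 and 5.74e-18). In early mouse gastruloids each library had 3 counts or fewer of these genes, so the sizes of their fitted differences are no bounds and are not given. In early RA-gastruloids UNC5C was at 77.2 and 76.4 CPM, SEMA3A at 47.7 and 42.7 and ROBO2 at 10.5 and 11.2. PLXNA4 differed by -7.36 ± 0.75, edgeR adjusted p = 1.65e-10 (human minus mouse, log2), and was at 1.44 and 0.404 CPM in early RA-gastruloids. SLIT2, at 263 and 278 CPM in early RA-gastruloids and 4.49 and 5.37 in early mouse gastruloids, differed by -4.46 ± 0.15, edgeR adjusted p = 2.29e-23. The early samples differ in time, medium and exposure to retinoic acid as well as in species, and these cannot be told apart.

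**Figure D5:**
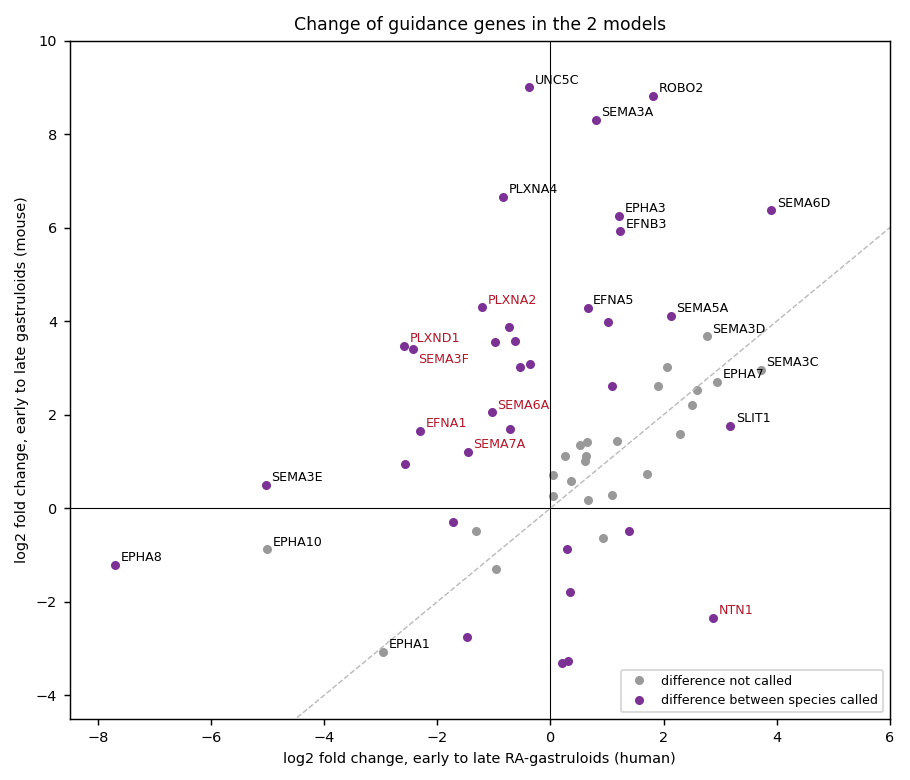
Log2 fold change from early to late RA-gastruloids (horizontal axis, human) against that from early to late mouse gastruloids (vertical axis) for the 60 members tested in both species. Points are purple where the difference between the models was called and grey where it was not, the diagonal is dashed, and genes called in opposite directions are named in red. UNC5C, ROBO2 and SEMA3A (3 counts or fewer in each early mouse library) lie at the top and NTN1 (2.87 in human and -2.35 in mouse) at the lower right. Those 3 genes, EPHA3, SEMA3D and EPHA8 (0 counts in both late human samples) are among the points drawn at a fitted value that is no bound.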

How the data were processed

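The authors deposited 1 table of whole-number gene counts per species, not normalized. Per the paper's methods and the submitters' processing notes, polyadenylated RNA was sequenced, reads were trimmed with Trimmomatic 0.39, mapped by STAR (GRCh38 for human, GRCm39 for mouse) and assigned to genes by featureCounts under default parameters, which uses no strand and leaves out reads with several alignments. Annotation release: not given in the sources used here. Symbols came from GENCODE by gene identifier (44876 of 44910 human and 29486 of 29720 mouse genes found). All sample columns were mapped to a group by name.

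Members were taken by symbol, and the members and gene lists were chosen with earlier results of these data known. Counts were filtered with filterByExpr, TMM-normalized and tested in R 4.3.3 with edgeR 4.0.16 (glmQLFit, glmQLFTest; 1 fit per species, 1 coefficient per group), with adjustment over all genes tested. Values after ± are standard errors of log2 fold changes, CPM values are TMM-normalized, and values such as 13.4 and 15.4 are replicates 1 and 2. Named genes were, per comparison, the 5 largest rises and falls among called members whose higher group averaged 5 CPM or more and whose replicates did not overlap, plus members that complete a family. Where both libraries of the lower group had 3 counts or fewer, an exact conditional binomial interval of the count ratio replaced the fitted fold. It covers counting error only. The test was checked on simulated counts: 200 of 200 genes changed 4-fold from early to late were recovered in each species, with 4 false calls among 16920 human and 1 among 14286 mouse genes. DESeq2 1.42.0, other normalizations, no filter, other sample sets and a replicate block were alternatives. Figures used Python 3.11.15 and matplotlib 3.10.9. The paper's tables and proteome data were not used here.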

Additional observations from a re-analysis of the deposited data

Results flagged for a closer look

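In 7 members the change from early to late gastruloids was called in opposite directions in human and mouse. The difference passed its own test in each. Opposite calls in the same counts all but fix that outcome, so the test adds no separate support. Of the 12002 matched genes tested in each species 4.58% were called in opposite directions, against 11.7% of the 60 members. Values are log2, human minus mouse for the difference, which comes from 1 joint fit with its own normalization and so is not exactly the gap between the changes fitted per species. NTN1 changed by 2.87 in human and -2.35 in mouse (difference 5.37, edgeR adjusted p = 1.02e-24) and was the only one of the 7 that was higher late in human and lower late in mouse. The other 6 were lower late in human and higher late in mouse. PLXND1 changed by -2.59 in human and 3.47 in mouse (difference -5.91, edgeR adjusted p = 3.9e-25). SEMA3F changed by -2.43 in human and 3.41 in mouse (difference -5.69, edgeR adjusted p = 2.24e-22) and PLXNA2 by -1.202 in human and 4.296 in mouse (difference -5.35, edgeR adjusted p = 4.92e-25). EFNA1 changed by -2.304 in human and 1.66 in mouse (difference -3.82, edgeR adjusted p = 2.12e-13), SEMA6A by -1.04 in human and 2.05 in mouse (difference -2.95, edgeR adjusted p = 1.05e-17) and SEMA7A by -1.46 in human and 1.201 in mouse (difference -2.51, edgeR adjusted p = 5.14e-09). Both samples of a late stage lay on the same side of both early samples for each of the 7 genes in each species. The calls made this likely beforehand. Line, time, medium, retinoic acid and Matrigel differ together with species here and cannot be told apart. Groups of 2 samples were too small for a search for single outlying samples.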

How the results depend on the processing

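For the genes named by the rule, the direction and the call were kept under all the alternatives run for them (825 values). These genes were picked for large changes and separate replicates, so this outcome was likely beforehand. Other members, some with calls near the fold threshold, were followed only through the counts of calls. For counts and sums, 193 values stayed within 1.5 times the count or 1 SD of the sum and 16 did not. With the adjusted p alone and no fold threshold, 17 members were lower from naïve to primed H9, 38 higher and 2 lower from primed H9 to primed RUES2-GLR, 17 lower from naïve ESCs to early gastruloids in mouse, and 25 higher and 19 lower from EpiLCs to early gastruloids. The single lower call between the primed lines, EPHA5, was 0 with DESeq2, 0 when only the compared groups were fitted, and 0 to 2 when a replicate was left out (0 without primed H9 replicate 2 or either primed RUES2-GLR replicate, 2 without primed H9 replicate 1). Leaving out a replicate gave 16 to 22 higher calls from early to late RA-gastruloids (16 without late replicate 1) and 20 to 27 from primed H9 to primed RUES2-GLR, with other counts closer to their values. With DESeq2 size factors the summed CPM was 2767.1 in primed H9, 5399.1 in primed RUES2-GLR, 1764.8 in early and 3387.2 in late mouse gastruloids, and the median log2 change of all genes moved from -0.119 to 0 between the primed lines and from 0.00485 to -0.0999 from naïve to primed H9. Same-numbered replicates did not deviate together (correlations of -0.112 to 0.0684 over 10 human and -0.0483 to 0.00806 over 6 mouse pairs of groups), so the numbers were not taken as pairs. With a replicate block 34 members were higher in primed than in naïve H9 and 22 from early to late RA-gastruloids, and no count of members moved by over 1.5 times. With 2 samples per group the p-values rest on a spread shared over groups, and human depth varied most within a group in primed RUES2-GLR and primed H9.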

Other observations

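Some members that lie close together on a chromosome differed in direction, and others did not. The sets given here were chosen after their values were seen. EFNA4, EFNA3 and EFNA1 follow each other on human chromosome 1, with 9.28 and 40.3 kb between them. From primed RUES2-GLR to early RA-gastruloids EFNA3 went from 11.5 and 8.602 to 28.1 and 30.9 CPM (log2 fold change 1.47 ± 0.17, edgeR adjusted p = 1.2e-08), EFNA4 from 38.7 and 46.8 to 30.1 and 28.1 (log2 fold change -0.52 ± 0.14, edgeR adjusted p = 0.00235) and EFNA1 from 10.5 and 8.602 to 18.4 and 18.9 (log2 fold change 0.90 ± 0.19, edgeR adjusted p = 0.000126). The mouse pair Efna3 and Efna4, 10.4 kb apart on chromosome 3, moved alike, both called lower from naïve ESCs to EpiLCs and higher from EpiLCs to early gastruloids. EPHA8 and EPHB2, 107 kb apart on human chromosome 1, both fell from primed RUES2-GLR to early RA-gastruloids. In late RA-gastruloids EPHB2 rose while EPHA8 had 0 counts. SEMA3F and SEMA3B, 78.5 kb apart on chromosome 3, went opposite ways from early to late RA-gastruloids, SEMA3F from 112 and 112 to 24.7 and 15.7 CPM and SEMA3B from 11.2 and 9.79 to 26.2 and 17.8 (log2 fold change 1.09 ± 0.18, edgeR adjusted p = 5.79e-06). In mouse, where Robo4 and Robo3 lie 0.553 kb apart on chromosome 9, Robo4 reached 7.61 and 7.56 CPM in early gastruloids and Robo3 0.642 and 0.704 CPM.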
